A study of Pardosa pseudoannulata with 6 samples.

Results

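The 5 transcripts described here are best-hit matches to Fat cadherins and to four-jointed, the enzyme that modifies them, in Pardosa pseudoannulata, a hunting spider of rice fields. They are 5 of the 75542 assembled transcript clusters in the deposited table, and were chosen by their FPKM in the dsFactin and dsNC libraries of this same table. Their differences between groups are therefore given as a description, without a test. One member carries the best hit four-jointed box protein 1-like (Cluster-8110.25811), and the others are hits to a fat-like cadherin-related tumor suppressor (Cluster-8110.33676 and Cluster-8110.25323), to protocadherin Fat 4 (Cluster-8110.8407) and to a cadherin-related tumor suppressor (Cluster-10549.0). The data were RNA sequencing libraries of spiders that were all exposed to cadmium and microinjected with double-stranded RNA. In 3 libraries the injected RNA was labelled dsNC, taken here as the control injection, and in 3 it was labelled dsFactin, after the F-actin gene that the study silenced. Tissue and source are labelled only as individual, so values may average over all organs, and no label says whether replicates were separate animals. The p-values below then measure the spread between these libraries, which may be technical.

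Cadherins are calcium-dependent adhesion proteins. In Drosophila, Fat and Dachsous are giant cadherins that bind each other between neighbouring cells, and four-jointed is a Golgi kinase that phosphorylates their cadherin domains and so tunes the binding. Fat acts through the Hippo pathway, in which the kinase Warts (LATS in vertebrates) keeps the co-activator Yorkie (YAP) out of the nucleus and limits growth, and the same cadherins orient cells within an epithelium. Fat-like, called kugelei in Drosophila, is a separate giant cadherin known for organising actin in the plane of the follicle epithelium. The series named the Hippo pathway as the candidate target of F-actin.

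Values were FPKM, fragments per kilobase scaled to depth. The steps between low values fitted a length shortened by 281 to 311 bases, so a cluster of 400 bases was divided by far less than its length and its FPKM is not directly comparable with that of a long one. Depth, read from the steps between low values, was 15.7 to 17.6 M (mega) fragments in dsNC and 16.2 to 17.9 M in dsFactin. The 53182 clusters that reached 0.5 FPKM in 3 or more libraries were tested with limma on log2(FPKM + 1), with p adjusted over all of them, and all 5 members passed this filter. An adjusted p under 0.05 was reached by 0.496% of tested clusters, with 0.0771% higher and 0.419% lower in dsFactin. The median log2(FPKM + 1) difference (dsFactin minus dsNC) over all tested clusters was -0.27, -0.09 once libraries were rescaled by median ratios and 0.02 with quantile normalization, so differences are to be read against these shifts. Words for actin, the family of the injected RNA, marked 8 tested clusters. They took in an actin-like protein 6B hit (Cluster-8110.38029), a related protein and not an actin. In this list actin-87E (Cluster-8110.35523) averaged 1019 ± 124 FPKM in dsNC against 431 ± 114 in dsFactin (SD, n = 3), and was the lowest relative to dsNC. Of the 8, 4 had negative and 4 positive differences, the actin-like protein among the positive. In all, 3 lay wholly below and 2 wholly above, beside 21.5% and 5.98% of all tested clusters. Cluster-8110.34480 turned positive with median-ratio rescaling. Another actin hit (Cluster-8110.34975) was at 1733 ± 61.0 and 1932 ± 153 FPKM. Muscle markers summed to 8788 to 10957 FPKM in dsNC and 4246 to 5456 FPKM in dsFactin, hemocyanins to 71798 to 88725 and 43746 to 53998 FPKM, and cuticle proteins to 26924 to 32495 and 6898 to 27002 FPKM. Yolk and eggshell markers summed to 9915 to 14139 FPKM in dsNC and 14124 to 25323 FPKM in dsFactin, germ line markers to 219 to 238 and 242 to 365 FPKM, and neuronal markers to 288 to 355 and 250 to 266 FPKM. Differences were negative, as in 71.6% of all tested clusters, in 65 of 69 tested muscle clusters, 43 of 43 hemocyanins, 115 of 138 cuticle proteins, 17 of 29 yolk, 7 of 15 germ line and 33 of 44 neuronal clusters, and 1 muscle cluster was at 0 in all libraries. In two-sided exact permutation tests of the summed levels p was 0.1, the smallest that 3 against 3 libraries allow, for muscle, hemocyanin, germ line and neuronal markers, and 0.2 for cuticle and yolk. The part that these organ markers have in the values below was not tested.

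The 5 members were of 3 kinds by length and level. Four-jointed, 3737 bases long, was in dsFactin at 34.8% of its dsNC mean. The long Fat-like cluster, 15566 bases, was at almost the same level in every library. The remaining Fat hits were 382 to 518 bases long, were seen in every dsNC library and were at or near 0 in most dsFactin libraries, on very few fragments. In bulk libraries, fewer cells of a type and less RNA per cell cannot be told apart.

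**Figure D1:**
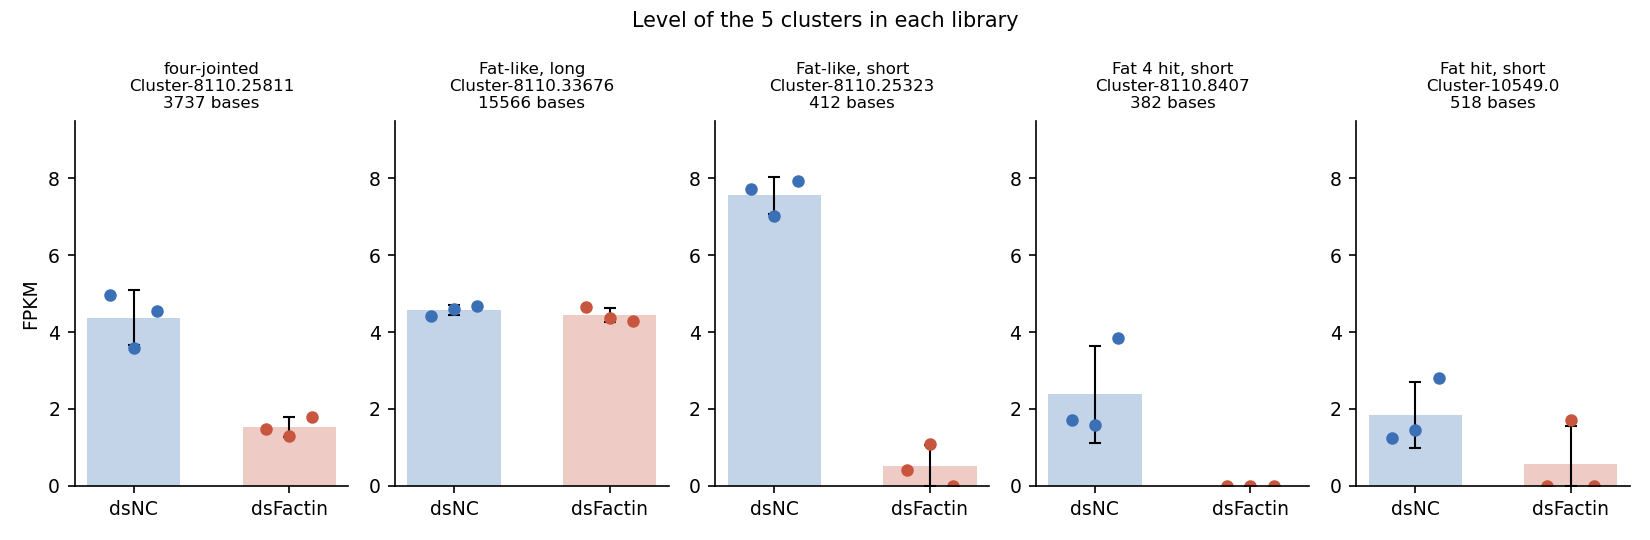
FPKM (linear axis) of the 5 clusters in the dsNC (blue) and dsFactin (red) libraries. Points are libraries, bars are means of 3 and error bars are SD, drawn no lower than 0. The long Fat-like cluster sits between 4.30 and 4.69 FPKM in all libraries, whereas the Fat 4 hit is listed at 0 in all 3 dsFactin libraries.

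Four-jointed (Cluster-8110.25811) was at 4.97, 3.59 and 4.56 FPKM in dsNC replicates 1 to 3 and at 1.47, 1.29 and 1.80 FPKM in dsFactin replicates 1 to 3. Every dsFactin library lay below every dsNC library, as in 21.5% of all tested clusters, and 5.98% had a gap in the other direction. Such a gap was seen in 3 of the 5 members, which were chosen by these values, so the count is a description. For Cluster-8110.8407, at 0 in all dsFactin libraries, the filter could be passed through dsNC alone, so its gap was fixed in advance. The mean was 4.37 ± 0.709 FPKM over the dsNC libraries and 1.52 ± 0.259 over the dsFactin libraries (SD, n = 3). On the log2(FPKM + 1) scale the difference was -1.09 ± 0.20 (SE), becoming -0.85 with median-ratio rescaling and -0.75 with quantile normalization. These values rest on 201 to 276 fragments per dsNC library and 74 to 100 per dsFactin library. The spread between dsNC libraries was 16.2% of the mean, where counting error alone would give 6.35%. Its best hit came from the spider Uloborus diversus, and the KEGG orthology entry of the cluster was four-jointed box protein 1. The Swiss-Prot hit was a four-jointed box protein 1 of Xiphophorus maculatus, at a score of 416.

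A second cluster with that orthology entry (Cluster-8110.23497, 1940 bases) carried only a hypothetical protein as its best hit, and was found by its entry after values had been seen. Its Swiss-Prot hit was the Drosophila kinase four-jointed itself, at a score of 693, above the 416 of the longer member. It was at 1.44, 1.42 and 1.38 FPKM in dsNC against 0.740, 0.440 and 1.17 in dsFactin, again without overlap, on 12 to 40 fragments per library. Its log2 difference of -0.46 ± 0.24 (SE) did not pass in limma (adjusted p = 0.361, and 0.215 to 0.928 over the alternatives). Four-jointed box transcripts were thus represented by a more abundant and a less abundant cluster, with lower values in all 3 dsFactin libraries for each. Whether they are separate genes or pieces of 1 transcript was not tested.

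The long Fat-like cluster (Cluster-8110.33676) was at 4.42, 4.60 and 4.69 FPKM in dsNC against 4.65, 4.37 and 4.30 in dsFactin. The groups overlapped, and the means were 4.57 ± 0.137 and 4.44 ± 0.185 FPKM (SD, n = 3). It was the best measured member, with 1061 to 1274 fragments per library, and its spread in dsNC, 3.01% of the mean, was close to the 2.94% that counting error alone would give. The log2 difference was -0.03 ± 0.15 (SE), and it became positive with median-ratio rescaling (0.23) and with quantile normalization (0.27). Its best hit was a Fat-like homolog of the orb weaver Argiope bruennichi, its Swiss-Prot hit was the Drosophila kugelei protein, and its orthology entry was protocadherin Fat 1/2/3.

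Very long clusters mostly behaved otherwise. Of the 145 tested clusters of at least 10000 bases, 5 had a positive log2 difference and those same 5 were the ones above the long Fat-like cluster. The median over the 145 was -0.50, and dsFactin lay wholly below dsNC in 73.1% of them. That share was 13.4% below 600 bases and 37.8% from 2000 to under 10000 bases. Median fragments per library rise along the same classes, from 2.33 in the shortest to 791 in the longest, and their part in these shares was not tested.

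The short Fat-like hit (Cluster-8110.25323, 412 bases) shares its name with the long cluster but not its pattern. It was at 7.72, 7.01 and 7.94 FPKM in dsNC and at 0.410, 1.09 and 0 FPKM in dsFactin. The groups were far apart, with means of 7.56 ± 0.486 and 0.50 ± 0.551 FPKM (SD, n = 3) and a log2 difference of -2.58 ± 0.30 (SE). Recovered fragments were 12, 12 and 16 in dsNC and 1, 2 and 0 in dsFactin. Summed, these are 40 fragments (exact Poisson 95% interval 28.6 to 54.5) against 3 (0.619 to 8.77), intervals that cover counting error only. Per kilobase of its whole length and M fragments of depth this is 1.95 ± 0.225 in dsNC (SD, n = 3), below the 4.48 ± 0.136 of the long cluster, although its FPKM is higher.

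The protocadherin Fat 4 hit (Cluster-8110.8407, 382 bases) was at 1.71, 1.58 and 3.84 FPKM in dsNC, whereas each of the 3 dsFactin libraries listed it at 0. At this length a single fragment is worth 0.543 to 0.853 FPKM, more than the 0.5 FPKM of the filter. The dsNC values correspond to 2, 2 and 6 fragments, 10 in all (4.80 to 18.4, exact Poisson 95% interval). A count of 0 allows up to 3 fragments per library, or 1.63 to 2.56 FPKM, so the 2 fragments of dsNC replicates 1 and 2 could not be told from 0 in a single library at this depth. The log2(FPKM + 1) difference of -1.69 ± 0.31 (SE) is set by the pseudocount, becoming -7.78 at a pseudocount of 0.01.

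The cadherin-related tumor suppressor hit (Cluster-10549.0, 518 bases) was at 1.23, 1.46 and 2.81 FPKM in dsNC and at 0, 1.70 and 0 FPKM in dsFactin. Here the groups overlapped, since dsFactin replicate 2 lay above 2 of the dsNC libraries. The fragments behind these values were 4, 5 and 11 in dsNC and 0, 6 and 0 in dsFactin. The means were 1.83 ± 0.854 and 0.567 ± 0.981 FPKM (SD, n = 3). The log2 difference was -0.98 ± 0.47 (SE), and -1.46 without dsFactin replicate 2.

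Sparse counts were the rule among short clusters. Of the 18895 tested clusters of 300 to under 600 bases, 86.2% averaged fewer than 10 fragments per library, and the median log2 difference was -0.30. By contrast, no tested cluster of 2000 bases or more averaged so few, 0% in each of the longer classes. The filter largely sets this. In a cluster of 2001 bases a fragment is worth 0.0324 to 0.0376 FPKM, so 0.5 FPKM takes more than 10 fragments in a library.

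Several properties of the Fat clusters bear on whether they are fragments or related genes. The long Fat-like cluster (Cluster-8110.33676) has a companion of nearly the same length, Cluster-8110.42676 at 15206 bases, with the same orthology entry and the same Swiss-Prot hit. The best protein hits of both come from Argiope bruennichi but are different protein records. Each scored about alike for its length, at 133 and 131 points of alignment score per 100 bases. The companion was at 1.86, 2.21 and 1.62 FPKM in dsNC against 0.790, 1.16 and 0.530 in dsFactin. Relative to the long cluster in the same library it was at 0.421, 0.480 and 0.345 in dsNC and 0.170, 0.265 and 0.123 in dsFactin, and the ratios of the groups do not overlap. The long cluster is a chosen member with almost the same level in every library, so these ratios follow the FPKM of the companion. In 73.1% of tested clusters of at least 10000 bases dsFactin lay wholly below dsNC, so the gap in FPKM does not set the companion apart. How often the ratio of 2 such clusters differs without overlap was not tested. Whether the pair are separate genes, alleles or alternative assemblies was not tested.

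The short Fat-like hit (Cluster-8110.25323) showed a wider shift of this kind, with an FPKM ratio to the long cluster of 1.65 ± 0.116 in dsNC and 0.113 ± 0.126 in dsFactin (SD, n = 3). With whole lengths the ratio was 0.434 ± 0.0419 and 0.0326 ± 0.0341, so which cluster is the higher in dsNC depends on the length used. The groups lie apart with either length, but both ratios rest on the same fragments. Both clusters are members chosen by these values, so the gap is a description only. The alignment score of the short hit was 58.5 per 100 bases of whole length, the lowest of the short members, where the others scored 160 and 153. Four-jointed, at 45.4, is a far longer cluster of another family and no like comparison. The short hit had no Swiss-Prot hit, no orthology entry and no Pfam domain, and its best hit came from Trichonephila clavata. The name of this cluster thus rests on a single protein hit. Another Fat-like hit (Cluster-8110.30502, 4540 bases) had ratios of 0.809 ± 0.125 and 0.430 ± 0.282, which overlapped. Its best nucleotide hit was a protocadherin-16-like transcript, a Dachsous relative, so its name is uncertain as well.

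**Figure D2:**
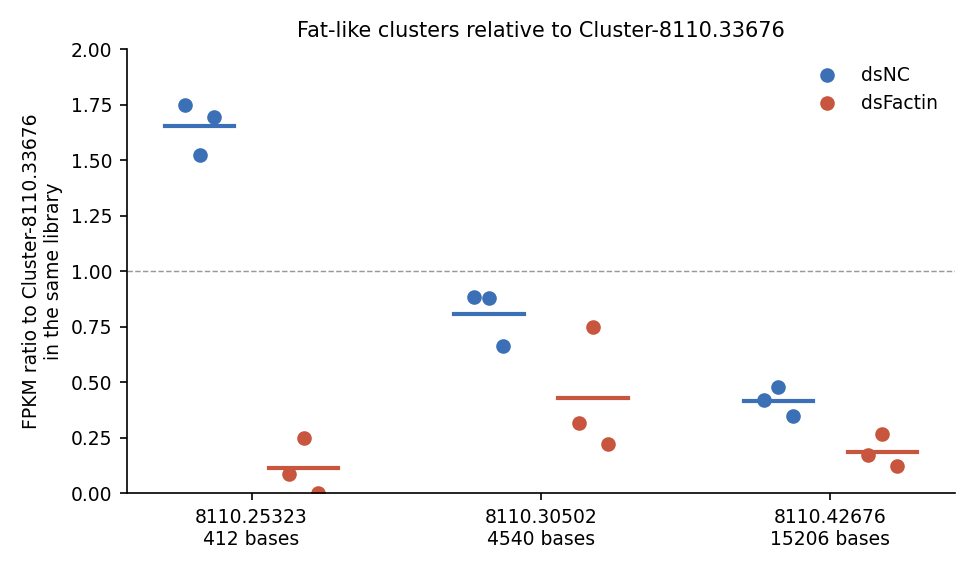
FPKM of 3 Fat-like hits divided by that of Cluster-8110.33676 in the same library (linear axis). Points are libraries, horizontal bars are group means, dsNC blue and dsFactin red. The FPKM ratio of the short hit, which whole lengths lower to 0.396 to 0.479 in dsNC, is 1.52 to 1.75 in dsNC and at most 0.249 in dsFactin, and that of Cluster-8110.42676 is 0.345 to 0.480 and 0.123 to 0.265.

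The other short members shared some of their annotation. Cluster-8110.8407 and Cluster-10549.0 scored 160 and 153 per 100 bases, each carried a Pfam cadherin domain, and each had the orthology entry protocadherin Fat 4. Their best hits came from Trichonephila clavata and Trichonephila inaurata madagascariensis. Their Swiss-Prot hits differed, since Cluster-10549.0 matched human protocadherin Fat 4 and Cluster-8110.8407 matched a bovine cadherin-related family member 1, which is not a Fat, so the name of the latter is uncertain. That entry was held by 6 clusters in all, 4 of them under 1000 bases. The 4 short clusters together held 7 to 26 of 1871 to 2072 fragments per dsNC library and 0 to 7 of 1125 to 1190 per dsFactin library, at most 1.39% of the entry's fragments. Almost all reads of this entry therefore came from its 2 long clusters, a cadherin-related tumor suppressor-like cluster and a protocadherin Fat 4-like cluster. No member had a Drosophila best hit. The 211 tested clusters that did had a median log2 difference of -2.02, against -0.20 for the 2372 with a Trichonephila hit.

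Words in the best-hit names marked 15 clusters as Fat, Dachsous or four-jointed, and the 10 that are not members describe the rest of the system. Of these, 8 were tested, and in limma 0 rose and 0 fell, with 4 at an unadjusted p under 0.05, as had 19.3% of all tested clusters. Those 4 are the clusters of at least 10000 bases, a class in which 53.8% of the 145 tested reached it. With voom, limma’s weighting for counts, run on recovered fragments and added after the data were seen, 2 of the 8 fell and 0 rose, where 1.51% of all tested clusters fell and 0.528% rose. Both are very long clusters, and 13.8% of that class fell with voom. The difference was negative in all 8, as in 71.6% of all tested clusters and 96.6% of the very long ones, also after median-ratio rescaling, and 7 of 8 were negative after quantile normalization, the exception being Cluster-8110.20750. Their median was -0.56, beside -0.27 over all tested clusters, and -0.40 under median-ratio rescaling, beside -0.09.

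Fat itself, as the cadherin-related tumor suppressor-like cluster (Cluster-8110.30516, 13466 bases, Swiss-Prot hit Drosophila fat), was at 2.04, 2.63 and 2.05 FPKM in dsNC against 0.620, 1.01 and 0.720 in dsFactin. The groups did not overlap, and 146 to 564 fragments per library stood behind each value. The log2 difference was -0.86 ± 0.22 (SE), not past the threshold in limma (adjusted p = 0.118), while voom gave -1.54 (adjusted p = 0.0236). Over all alternatives its adjusted p ran from 0.0236 to 0.358. Cluster-8110.40695, a 3688-base hit to the same protein name, was at 1.28 ± 0.193 and 0.630 ± 0.155 FPKM (SD, n = 3), and its nearest nucleotide record was the same Argiope bruennichi transcript as that of Cluster-8110.30516. It differed by -0.49 ± 0.22 (SE, adjusted p = 0.290 in limma), and the partial Fat-like hit Cluster-8110.30502 by -0.77 ± 0.32 (adjusted p = 0.266). The ratio of Cluster-8110.40695 to Cluster-8110.30516 was 0.502 to 0.707 in dsNC and 0.634 to 1.08 in dsFactin, which overlap.

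Dachsous, the ligand of Fat (Cluster-8110.36671, 11659 bases), was at 2.38, 2.33 and 2.03 FPKM in dsNC against 1.12, 1.33 and 1.11 in dsFactin. All dsFactin libraries were below all dsNC libraries, with a log2 difference of -0.57 ± 0.20 (SE). It did not pass in limma (adjusted p = 0.197) and passed with voom (adjusted p = 0.0421), and its adjusted p was between 0.0421 and 0.737 over the alternatives. The protocadherin Fat 4-like cluster (Cluster-8110.37147, 11826 bases) was the most abundant of the family, at 8.82, 7.98 and 6.74 FPKM in dsNC against 4.72, 4.87 and 5.57 in dsFactin. Its log2 difference of -0.54 ± 0.17 (SE) gave an adjusted p of 0.160 in limma and 0.0709 with voom, the lowest of its alternatives (highest 0.569). The Fat-like companion (Cluster-8110.42676) differed by -0.67 ± 0.24 (adjusted p = 0.202 in limma, 0.0546 with voom, and up to 0.613 over the alternatives).

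In order of mean level in dsNC, the clusters of at least 10000 bases ran from Fat 4-like (7.85 ± 1.05 FPKM) and the long Fat-like (4.57 ± 0.137 FPKM) to Dachsous (2.25 ± 0.189 FPKM), Fat (2.24 ± 0.338 FPKM) and the Fat-like companion (1.90 ± 0.297 FPKM, SD, n = 3). The last 3 overlapped in their values. Fat and Dachsous were at almost the same level in dsNC, and at 0.783 ± 0.203 and 1.19 ± 0.124 FPKM in dsFactin. Among the 145 very long clusters, 125 had a higher log2 difference than Fat and 84 a higher one than Dachsous.

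The shorter clusters of the word list were less informative. Cluster-8110.20750 (1077 bases) was at 1.89 ± 0.746 and 1.59 ± 1.15 FPKM, and Cluster-8110.17661 (363 bases) at 1.99 ± 1.99 and 0.807 ± 0.742 FPKM (SD, n = 3), with overlap in each. The remaining Fat 4 hits did not reach the filter. Cluster-8110.52497 was at 0.94, 2.16 and 0.480 FPKM in dsNC against 0.150, 0 and 0 in dsFactin, and Cluster-8110.12902 was at 0.570, 0 and 1.81 FPKM in dsNC and at 0 throughout dsFactin.

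**Figure D3:**
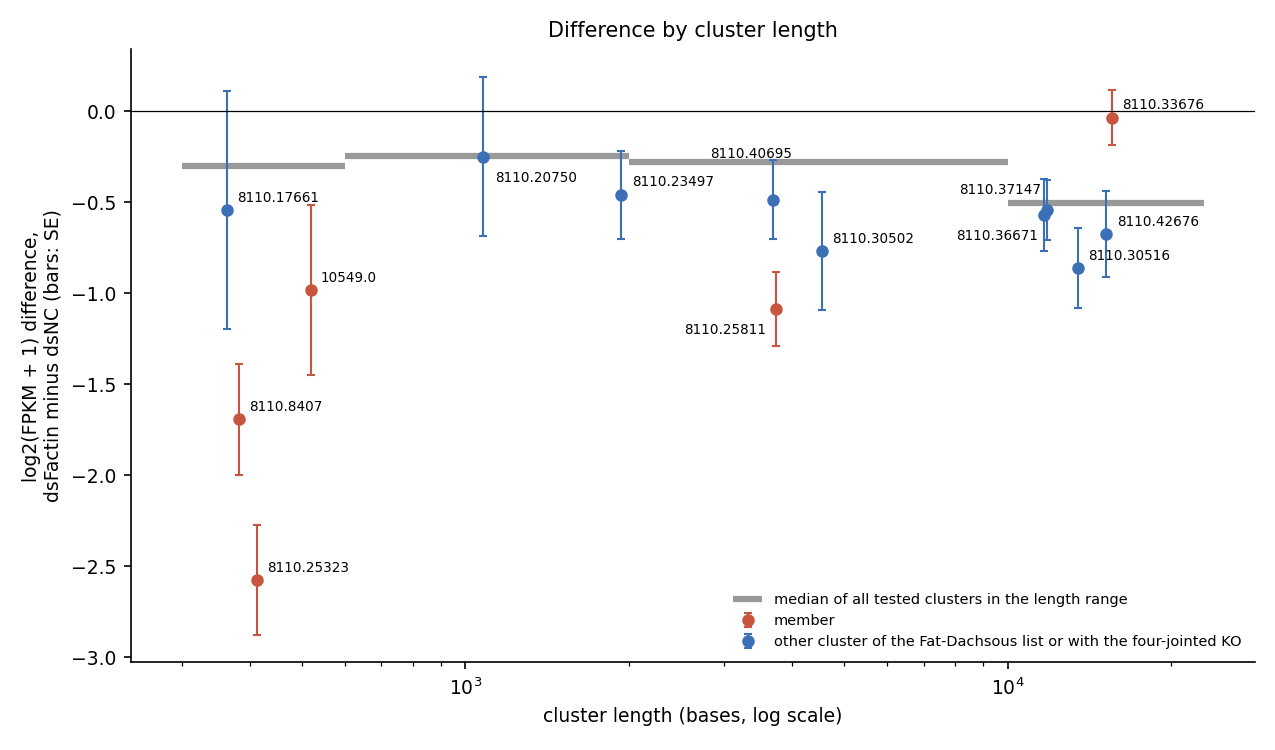
Difference in log2(FPKM + 1), dsFactin minus dsNC, against cluster length (log axis) for the 5 members (red) and 9 other tested clusters (blue). Bars are SE and grey lines are medians of all tested clusters in 4 length ranges, -0.30 in the shortest and -0.50 in the longest. The short hits Cluster-8110.25323 and Cluster-8110.8407 lie lowest, at -2.58 and -1.69, and the long Fat-like member lies nearest 0, at -0.03.

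Many core Hippo genes were at lower values in dsFactin without passing the test. Of 21 tested clusters in the Hippo word list, 0 rose and 0 fell in limma and 0 with voom. In limma 6 (28.6%) had an unadjusted p under 0.05, beside 19.3% of all tested clusters. In 11 of the 21 (52.4%) dsFactin lay wholly below dsNC, against 21.5% of all tested clusters, and in 1 wholly above. All of the 11 were 2000 to under 10000 bases long, a class in which 37.8% of tested clusters lay wholly below. The 21 also hold clusters under 2000 bases, so the share of the Hippo list within that class is above 52.4%. The median difference was -0.27, equal to that over all tested clusters, and 0.02 after quantile normalization. The YAP1-A-like co-activator (Cluster-8110.35150) was at 28.2 ± 3.57 and 18.9 ± 2.65 FPKM, its DNA-binding partner TEF-1-like (Cluster-8110.35143) at 6.35 ± 0.351 and 3.77 ± 0.716 FPKM, and the kinase LATS1-like (Cluster-8110.33359) at 9.44 ± 0.732 and 5.92 ± 1.15 FPKM (SD, n = 3). Their adjusted p in limma was 0.149, 0.140 and 0.148. A Yorkie-like cluster (Cluster-8110.40946), kibra (Cluster-8110.31887) and merlin (Cluster-8110.43773) also lay wholly below, at 68.9%, 65.0% and 72.7% of their dsNC means, and the Yorkie-like cluster and merlin had positive log2 differences with quantile normalization (0.02 and 0.05). MOB1B (Cluster-8110.38364), a LATS cofactor, was at 102% of its dsNC mean, with overlap. The 7 from YAP1-A-like to MOB1B were named after their values were seen. The nearest to the threshold were angiomotin (Cluster-8110.38655), which binds YAP in vertebrates, at 12.6 ± 2.12 and 7.18 ± 0.743 FPKM (SD, n = 3, log2 -0.72 ± 0.17 SE, adjusted p = 0.105), and a 14-3-3 zeta-like protein (Cluster-8110.34204), of the family that holds phosphorylated Yorkie in the cytoplasm, at 119 ± 7.16 and 199 ± 48.6 FPKM (log2 0.71 ± 0.18, adjusted p = 0.121). The other 14-3-3 hits of the list, also named after their values were seen, did not share this rise. A more abundant 14-3-3 zeta hit (Cluster-8110.34289) lay wholly below, at 89.4% of its dsNC mean. Its log2 difference was -0.16, and 0.17 with median-ratio rescaling. The 14-3-3 epsilon hits Cluster-8110.35387 and Cluster-8110.36062 were at 106% and 103% of their dsNC means, with overlap. The list took in a heat shock protein of the spider genus Kibramoa, which was not tested, and a microtubule-associated kinase, neither of them a Hippo gene. The kinase (Cluster-8110.15189) is among the 11 wholly below.

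Core planar polarity genes act beside Fat and Dachsous in orienting cells. In the word list made for them the difference was negative in 10 of 10 tested clusters, beside 71.6% of all tested clusters. Some were positive under median-ratio rescaling and under quantile normalization, when the median moved from -0.42 to -0.20 and -0.11. In limma 0 rose and 0 fell (5 at an unadjusted p under 0.05), and 0 passed with voom. The clusters named for stan, the Drosophila Flamingo and a core member, were sorted by their names into the list of other cadherins and are not in these counts. A cadherin EGF LAG hit (Cluster-8110.14194), a relative of stan, is in them, as are inturned, fuzzy, frizzled-4-like and frizzled-5 hits. The counts are therefore not of core genes alone. Prickle 3-like (Cluster-8110.33460) was at 96.4 ± 2.83 and 67.0 ± 4.90 FPKM (SD, n = 3, log2 -0.52 ± 0.11 SE, adjusted p = 0.0883). Its Swiss-Prot hit is a different LIM protein, so the name is uncertain. Frizzled-4-like (Cluster-8110.32000), a receptor of the Wnt family, was at 17.1 ± 1.18 and 10.6 ± 1.83 FPKM (log2 -0.65 ± 0.16, adjusted p = 0.112).

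Cadherins outside the Fat and Dachsous families, with 3 stan clusters among them, gave 0 higher and 0 lower clusters of 20 tested in limma (4 at an unadjusted p under 0.05), with a median of -0.49. With voom 1 (5%) fell, beside 1.51% of all tested clusters and 13.8% of those of at least 10000 bases. It was a cluster named for the planar polarity cadherin stan (Cluster-8110.39174, 12741 bases), which went from 1.70 ± 0.243 to 0.730 ± 0.0755 FPKM (SD, n = 3, log2 -1.20, adjusted p = 0.0320 with voom, 0.181 in limma and up to 0.688 over the alternatives). A cadherin-23-like cluster (Cluster-8110.34999) was at 10.2 ± 1.21 and 4.06 ± 2.49 FPKM (log2 -1.25 ± 0.34 SE, adjusted p = 0.130). Without dsFactin replicate 2 it passed (adjusted p = 0.0306, range over alternatives 0.0306 to 0.328), as did the cadherin-23 hit Cluster-8110.38116 (adjusted p = 0.0341, range 0.0341 to 0.417), and the count over all clusters rose from 264 to 1297. Among the other Fat and Dachsous clusters 0 passed in that setting.

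Words for secretory pathway kinases, the family of four-jointed, marked 8 tested clusters besides the member, and 0 rose and 0 fell in limma or with voom. In limma 1 (12.5%) had an unadjusted p under 0.05, beside 19.3% of all tested clusters. Of the 8 clusters, 5 are FAM200 hits, taken in by the letters of FAM20 and not kinases. The xylosylkinase of proteoglycan assembly (Cluster-8110.32725) was at 9.20 ± 0.849 and 9.54 ± 0.769 FPKM (SD, n = 3), and divergent protein kinase domain 2A (Cluster-8110.26480) at 2.41 ± 0.122 and 2.21 ± 0.142 FPKM. The rule for naming also took a FAM200A-like cluster (Cluster-8110.31517), at 10.7 ± 1.08 and 6.44 ± 1.71 FPKM (log2 -0.67 ± 0.20 SE, adjusted p = 0.156). In the actin list 0 rose and 0 fell in limma, with 2 of 8 (25%) at an unadjusted p under 0.05, beside 19.3% of all tested clusters. With voom 2 fell (25%, beside 1.51% of all tested clusters), actin-87E (adjusted p = 0.0201, range over alternatives 0.0201 to 0.217) and cytoplasmic A3a-like (Cluster-8110.34823, adjusted p = 0.0320, range 0.0320 to 0.336).

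**Figure D4:**
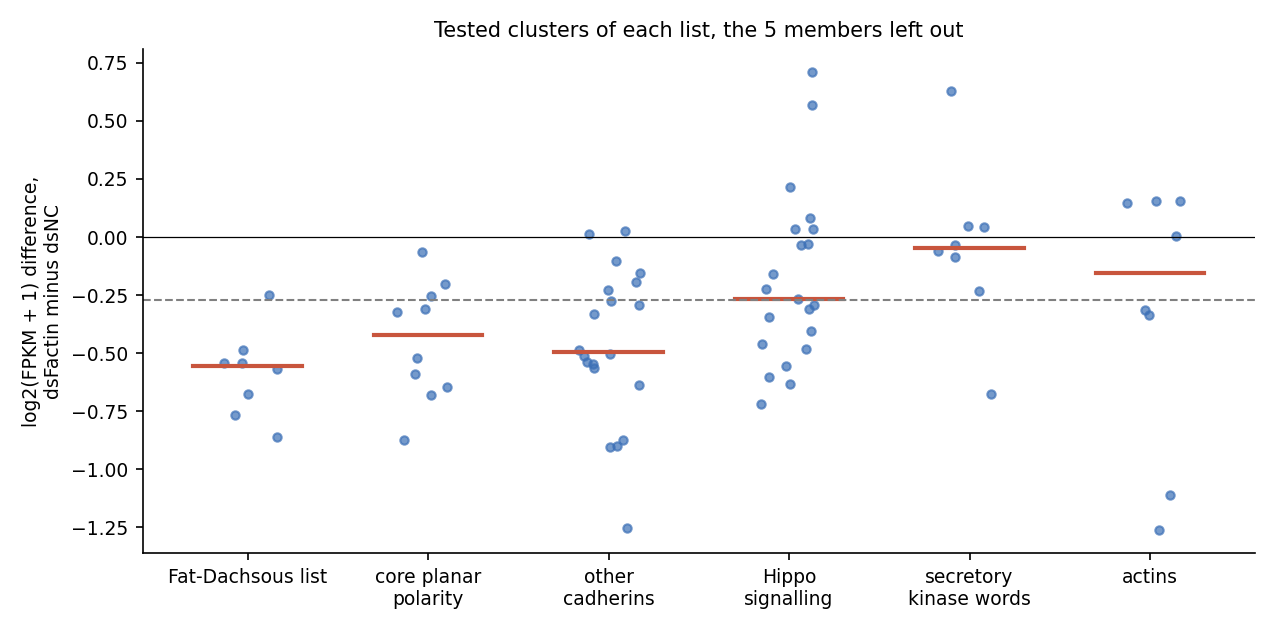
Difference in log2(FPKM + 1), dsFactin minus dsNC, of every tested cluster in 6 word lists, the 5 members left out. Points are clusters with random sideways shifts, red bars are list medians and the dashed line is the median of all tested clusters, -0.27. The Fat-Dachsous list has its median at -0.56 and the Hippo list at -0.27.

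Profiles over the 6 libraries were compared with those of 12978 named clusters of at least 1 FPKM, as a description. Four-jointed was most like a ZO-1-like tight junction protein (Cluster-8110.23438, Pearson r = 0.992), a membrane metallo-endopeptidase-like protein (Cluster-8110.38924, r = 0.991) and a syntaxin-1A-like protein (Cluster-8110.11276, r = 0.991). With so few libraries, 123 clusters exceeded an r of 0.95 with four-jointed and 494 did with the short Fat-like hit, but 9 with the long Fat-like cluster. Nearest to the last were an inositol-3-phosphate synthase (Cluster-8110.34109, r = 0.993), a phosphorylase kinase gamma chain (Cluster-8110.22662, r = 0.993) and a beta-1,3-glucosyltransferase (Cluster-8110.15068, r = 0.977). The short Fat-like hit was nearest to a zinc finger CCCH domain protein (Cluster-8110.25726), a hemocyanin G chain (Cluster-8110.34170) and a beta-arrestin-1-like protein (Cluster-8110.31360), with r from 0.998 to 0.999. The Fat 4 hit was nearest to a UTP-glucose-1-phosphate uridylyltransferase (Cluster-8110.51506, r = 0.9996), an accessory gland protein with a Drosophila hit (Cluster-8110.4596, r = 0.994) and a CCAAT/enhancer-binding protein zeta-like cluster (Cluster-8110.41562, r = 0.993). The first 2 of these were also listed at 0 in all dsFactin libraries. Cluster-10549.0 was nearest to a speckle-type POZ protein (Cluster-8110.17823), a toxin-like LSTX-H3 precursor (Cluster-8110.10173) and an oxygenase domain protein (Cluster-8110.34164), each at r = 0.997 to 0.998. Between members, r was 0.913 to 0.936 among four-jointed, the Fat 4 hit and the short Fat-like hit, and 0.294 to 0.539 between the long Fat-like cluster and any other member. The members were chosen by their FPKM in these same libraries. The r values between them therefore partly restate that choice and do not show that the members vary together.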

How the data were processed

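The authors deposited 1 table of FPKM values, rounded to 2 decimals, with cluster lengths and alignment scores of best protein hits, per the file headers. The submitters' processing notes name the mouse build mm10, whose genes the table does not hold, and aligner, read counter and assembler were not given in the sources used here. How reads were divided among related cadherins is therefore unknown, and no genome positions are given. Fragments were recovered from the steps between low FPKM values, and 99.6 to 99.8% of the low values in clusters of 400 to 1200 bases lay within 0.1 of a whole number. The fit took a length shortened by 281 to 311 bases, which raises FPKM most in short clusters. Under 450 bases the worth of a fragment was read from clusters of the same length (99.3 to 99.5% whole). At low values a fold on the log2(FPKM + 1) scale understates the change.

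Groups came from the sample titles. Two-sided tests between groups used limma (version 3.58.1, R version 4.3.3) with Benjamini-Hochberg adjustment and an intensity trend, after a check on simulated data. Marker sums were compared by exact permutation, whose smallest possible p is 0.1. Word lists were matched to best-hit names, so unrelated genes can enter. The members, lists and tests were chosen with earlier results of these data known. Genes named are the members, the Fat-Dachsous word list, for each other list the 2 with the smallest adjusted p at a mean of at least 1 FPKM (none passed), and for each member the 3 named clusters most correlated with it. Other genes named were chosen after their values were seen.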

Additional observations from a re-analysis of the deposited data

How the results depend on the processing

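Of 53182 tested clusters 264 passed (41 higher, 223 lower). The count was 114 at a pseudocount of 0.01, 117 without a filter, 781 at a mean of at least 5 FPKM (31.5% higher, against 15.5%), 115 after median-ratio rescaling, 247 with quantile normalization (26.7% higher), 174 without an intensity trend, 1086 with voom (25.9% higher) and 33 to 1297 with 1 library left out. With the replicate block it was 17 (1 higher, 16 lower). Same-numbered libraries did not deviate together (correlations 0.0994, -0.108 and -0.153), so the numbers do not pair them. Over the 6 lists the count of 0 became 3 at a mean of at least 5 FPKM (Cluster-8110.33460 and the actins Cluster-8110.35523 and Cluster-8110.34823), 5 with voom and 0 to 2 with 1 library left out. No member had a mean of 5 FPKM.

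Differences of Cluster-8110.25811, Cluster-8110.8407, Cluster-8110.25323 and Cluster-10549.0 were -1.46, -4.52, -4.28 and -2.80 at a pseudocount of 0.1, -1.52, -7.78, -5.50 and -4.96 at 0.01, and -1.52, -2.83, -3.51 and -2.54 with voom, which was chosen after seeing the data. Cluster-8110.25811 gave -0.85 and -0.75, and Cluster-8110.33676 gave 0.23 and 0.27, after median-ratio rescaling and quantile normalization. Leaving out 1 library gave -1.20 to -1.01 for Cluster-8110.25811, -1.86 to -1.40 for Cluster-8110.8407, -2.85 to -2.32 for Cluster-8110.25323, -0.06 to -0.02 for Cluster-8110.33676 and -1.46 to -0.75 for Cluster-10549.0.

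Signs turned for the neuronal marker sum (0.00775 after median-ratio rescaling, from -0.32), the actin median (0.00352 at a mean of at least 5 FPKM, 0.16 after median-ratio rescaling, 0.0105 with quantile normalization), the secretory kinase median (0.15 after median-ratio rescaling, 0.25 with quantile normalization, -0.0818 to 0.00711 with 1 library left out, the last without dsNC replicate 2), the Hippo median (0.0179 with quantile normalization) and Cluster-8110.20750 (0.0671 with quantile normalization, -0.51 to 0.20 with 1 library left out, the last without dsFactin replicate 1). At a mean of at least 5 FPKM the actin median is the value of the actin-like protein 6B hit, which is not an actin. Apart from the construction of each setting, the cause of the turned signs was not tested. Depth limits the short clusters, where a few fragments set the value. With fragments per base of the whole cluster, an alternative chosen after seeing the data, the mean log2 ratios of Cluster-8110.25323, Cluster-8110.8407 and Cluster-10549.0 to Cluster-8110.33676 in dsNC went from 0.72, -1.07 and -1.41 to -1.21, -3.29 and -2.67, because FPKM divides by a shortened length. Adding 0.1 FPKM or leaving out 1 library moved them by less than their spread (0.68 to 0.78, -1.46 to -0.83 and -1.75 to -1.20 with 1 left out).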
